A study of Drosophila melanogaster with 28 samples.

Results

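CG6372, CG9920 and CG31820 are the genes whose array elements gave some of the lowest female over male ratios of wild type pupae among the elements that the study's supplementary gene lists name. Each is represented by 1 of the 15744 array elements, of which 2357 could be named, and their ratios were followed over all 28 arrays of the series. Whole pupae were aged at 25°C to 48 hr APF (after puparium formation), RNA came from about 30 pupae of a genotype, and each array received the labeled RNAs of 2 genotypes. The series holds 7 such comparisons, each on 4 arrays. In 3 of them the sexes were compared with each other, within the wild type strains Canton S (CS) and Berlin and within tud progeny. In 3 more, CS females were set against chromosomally XX mutants, which were tra pseudomales, dsxD pseudomales or dsx nulls, and in the last, XY animals null for dsx were set against CS males. The tud progeny came from mothers with the markers bw and sp that were homozygous for a maternal-effect tudor allele, and they lack a germline, while the rest of the animal, including the somatic gonad, remains. The tra pseudomales carried a tra allele over a deficiency, and the dsxD pseudomales carried dsxD, marked with Sb and e, over dsx M+R15, so that both made the male isoform of DSX. The XX and XY dsx nulls carried dsx D+R3 over dsx M+R15, made neither isoform and are intersexual. Females of the tud progeny and all XX mutants carried a paternal X chromosome with a ubiquitin-GFP transgene, by which they were recognized, and the XY nulls and the wild type did not. The labels give whole body for every sample, and nothing in them says how many separate cultures the 4 arrays of a comparison stand for, so that the errors below are those between arrays and may be technical in part.

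Male germ cells of Drosophila enter spermatogenesis in the testis before and during the pupal stages, and primary spermatocytes switch on a large group of genes that are silent in nearly all other cells. Many of these transcripts are stored and translated later, when the spermatid builds its flagellum and remodels its mitochondria into the long derivatives that run along the sperm tail. CG6372, now named S-Lap1, encodes a leucyl aminopeptidase of the M17 family, whose testis members are abundant proteins of the sperm. CG9920 is annotated as a chaperone of the mitochondrial matrix and belongs with the small co-chaperonins that cap the Hsp60 barrel in protein folding. No role is given here for CG31820. DSX acts in the cells of the soma, including those of the gonad that surround the germ cells. In the Release 6 gene table CG6372 lies on 3L, CG9920 on 3R and CG31820 on 2L, so that none of them lies next to another.

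The authors deposited 1 log2 ratio for each element and array, and an element is empty where neither channel passed their intensity filter or where a spot was removed by eye. The direction of the ratios is not stated. It is likely female over male, CS female over pseudomale or XX dsx null, and CS male over XY dsx null, because the fold changes that the study lists for named genes have that sign in these comparisons and because roX1, a non-coding RNA of the dosage compensation complex of males, was below 0 on all 8 wild type arrays (-6.72 to -3.96) and all 4 tud arrays (-9.01 to -7.00). A single array held values for between 4783 and 12023 elements. roX1 lay between -0.46 and 0.36 on the 7 arrays of the tra and dsxD pseudomales where it had a value and between -0.12 and 0.29 on the XY dsx null arrays. The array labelled XX dsx null replicate 4 stood apart, with a roX1 ratio of -4.41 against -0.23 on replicate 3 and no value on replicates 1 and 2. Sxl, the switch gene of the female pathway, was represented by 2 elements, whose median ratios in the wild type comparisons and in tud progeny were between 0.35 and 2.10. The element with the lower medians ranged from -0.41 to 0.96 in CS, -0.08 to 1.03 in Berlin and -0.06 to 1.11 in tud progeny, and so reached below 0 in each. In the XY dsx null comparison both elements lay below 0, between -0.90 and -0.47 (n = 4) and between -0.62 and -0.35 (n = 2).

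The CS and Berlin ratios chose these genes, and their values there are a description. For CG6372 the log2 ratios of females over males on CS replicates 1 to 4 were -8.60, -9.25, -7.97 and -9.15. On Berlin replicates 1 to 4 they were -8.76, -10.21, -8.77 and -4.61. All 8 were far below 0, and Berlin replicate 4 was the only array above -7. The mean was -8.74 ± 0.59 (SD, n = 4) in CS, which corresponds to a 428-fold higher signal in males, and -8.09 ± 2.42 (SD, n = 4) in Berlin. Among the 2293 named elements measured on 2 or more CS arrays, CG6372 had the lowest mean.

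For CG9920 the CS ratios were -7.76, -7.07, -6.82 and -7.08, and the Berlin ratios were -9.72, -9.55, -9.84 and -4.65. Berlin replicates 1 to 3 lay below every CS array, whereas replicate 4 lay above every CS array. The mean was -7.18 ± 0.40 (SD, n = 4) in CS and -8.44 ± 2.53 (SD, n = 4) in Berlin, where it was the lowest among 2047 named elements measured on 2 or more arrays. CG31820 had the tightest CS ratios of the 3 genes, at -7.98, -7.96, -8.20 and -7.77 (mean -7.98 ± 0.18, SD, n = 4). In Berlin it was empty on replicates 1 and 2 and stood at -9.79 on replicate 3 and at -4.56 on replicate 4, so that its mean of -7.18 rests on 2 arrays that differ by more than the whole range of its CS values. The plot of the 3 genes over the arrays shows these values together with the arrays on which they were empty.

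**Figure D1:**
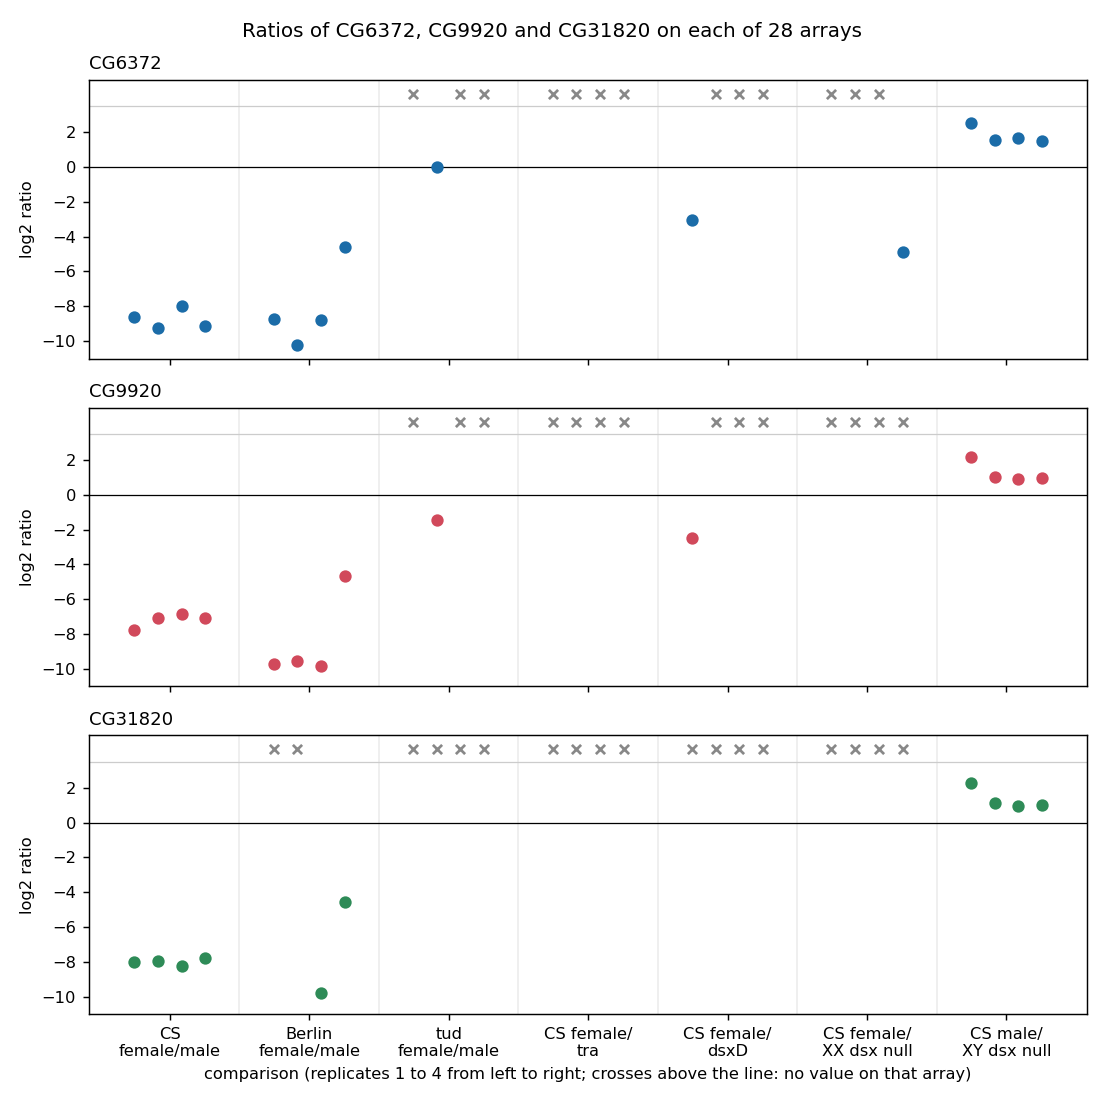
Log2 ratios of CG6372 (upper panel), CG9920 (middle) and CG31820 (lower) on the 4 arrays of each of the 7 comparisons, named on the horizontal axis as numerator and denominator; each point is 1 array, and a cross above the grey line marks an array without a value. The CS and Berlin points lie between -10.21 and -4.56, the XY dsx null points between 0.92 and 2.52, and the tra arrays hold no value for any of the 3 genes.

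Berlin replicate 4 gave less extreme ratios over all elements and not only for these genes. Of the 4590 elements with values on all 4 Berlin arrays, 48, 51 and 56 were at or below -5 on replicates 1, 2 and 3, and 1 was on replicate 4. The lowest ratio among them was between -10.21 and -9.72 on replicates 1 to 3 and -5.04 on replicate 4, although the median of the male germline list on these arrays was similar (-1.35, -1.55, -1.61 and -1.57 over the 407 of its elements on all 4 arrays). This list holds the 671 elements that the study lists with male germline expression, among them the 3 genes described here. Without Berlin replicate 4 the mean was -9.25 for CG6372 and -9.71 for CG9920, and CG31820 was left with a single value.

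The named elements closest to these genes in the wild type show where the choice ends. In CS the means of CG6372, CG31820 and CG9920 held the lowest, the second and the seventh place, and the elements between them were CG4750 (-7.96 ± 0.54, SD, n = 4), CG31639 (-7.56, n = 3), CG32064 (-7.32 ± 0.68, n = 4) and CG30430 (-7.25 ± 0.77, n = 4). The next after CG9920 was CG1288 at -7.14 ± 0.72 (SD, n = 4), within the spread of the arrays. In Berlin the 3 genes held the 3 lowest places, followed by CG17376 at -7.10 (n = 3) and CG4750 at -7.09 ± 2.55 (SD, n = 4). Of the 9 elements of any kind with a CS mean at or below that of CG9920, 2 could not be named. A ratio this low sets a bright channel against one near background, and since only ratios were deposited the fold itself has no known floor.

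Outside the wild type and the XY dsx null comparison, the 3 genes were mostly empty. CG31820 had no value on any of the 16 arrays of the tud progeny, the tra and dsxD pseudomales and the XX dsx nulls, CG9920 had 2 and CG6372 had 3. On the 12 arrays of CS, Berlin and XY dsx nulls, each of which carries RNA of XY animals with a germline, CG6372 and CG9920 had a value on all 12 and CG31820 on 10. None of the 3 reached the 2 arrays that a test needs in any of the 4 comparisons. The tra pseudomale arrays held no value for any of them.

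The few values that were present came from 3 arrays. On tud replicate 2, in which females and males both lack a germline, CG9920 had a log2 ratio of -1.47, and CG6372 was listed at exactly 0, the only exact 0 among the 211423 values of the table. In its separate time course, the study lists CG6372 as male-biased in tud progeny at an earlier and a later pupal stage, which the present arrays do not cover. On dsxD replicate 1, CG6372 was at -3.05 and CG9920 at -2.46, with more signal in the pseudomale than in the CS female. The labels of this array give the CS female by its source name but no sex in the other field, and roX1 had no value on it, while the ratios of all elements on dsxD arrays of opposite dye orientation correlated at 0.507 or more. This correlation was weaker in other comparisons, with a lowest value of 0.283 between tud arrays and 0.268 between tra arrays. On XX dsx null replicate 4, CG6372 was at -4.86, and this is the array on which roX1 was at -4.41. The other arrays of these comparisons were empty, so that each value is a single measurement with no replicate, and without these 3 arrays none of the genes had a value there.

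Other transcripts of the male germline also had low ratios on the same 3 arrays, which were picked by the values of the 3 genes. The 88 elements of the male germline list with a CS mean at or below -4 are called strong below. Of these, 8, 28 and 10 had a value on tud replicate 2, dsxD replicate 1 and XX dsx null replicate 4, and 5, 9 and 7 of them were at or below -1. On the 13 arrays without a value for the 3 genes, between 0 and 11 of the strong elements had a value and between 0 and 2 were at or below -1. The counts on the 3 arrays include CG6372 and CG9920 where these had values, and the 8 and 10 with a value lie within the range of the 13 arrays. Over the whole male germline list, 18 to 22 elements were at or below -1 on the 3 arrays and 1 to 19 on the 13, and these ranges overlap. Of 6 testis germline markers, which are betaTub85D, Mst98Ca, Mst98Cb, Mst87F, Mst77F and ProtA, 4 had values on XX dsx null replicate 4, between -4.37 and -1.77. On dsxD replicate 1 there were 5 of the 6, between -2.51 and 0.15, and on tud replicate 2 a single marker at -0.61. On the remaining 13 arrays 0 to 3 of the 6 had a value. The median of the whole male germline list stayed near 0 on the 3 arrays, between -0.11 and -0.08. RNA of XY animals was on tud replicate 2 by design, as 1 of its samples was male, and the source of the signal without a germline was not tested. On dsxD replicate 1 and XX dsx null replicate 4, the part that RNA of XY animals takes in these values was not tested.

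The emptiness of the 3 genes was shared with other elements of strong male bias. The 671 elements of the male germline list had values on a median of 7 of the 16 arrays and 11 of the 12, the 88 strong elements on 0 and 11, and all 15744 elements on 6 and 7. Values on at most 3 of the 16 arrays were found for 92.0% of the strong elements, 39.5% of the male germline list and 41.8% of all elements. Emptiness there was thus no more frequent in the whole list than over all elements. A pattern chosen after the values were seen, with values on at most 3 of the 16 arrays and at least 10 of the 12, includes the 3 genes and applied to 86.4% of the strong elements, to 31.6% of the male germline list and to 3.82% of all elements. The strong elements were defined by the same CS ratios as the 3 genes, and the 12 arrays include the CS and Berlin arrays of that choice. Values on the 12 arrays were therefore fixed in part by the selection. Many elements of the whole list are also transcribed outside the testis, so that these shares are a description. On single arrays between 31.6% and 64.5% of the male germline list had a value among the 16 arrays, against 73.9% to 97.3% among the 12.

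**Figure D2:**
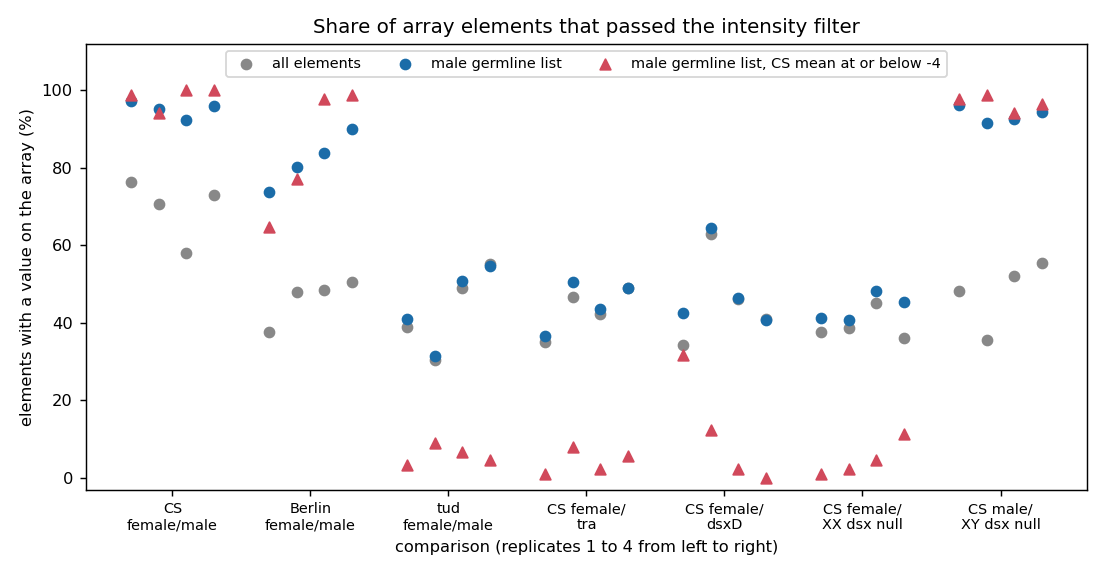
Share of array elements with a value on each of the 28 arrays (vertical axis, percent), for all 15744 elements, the 671 elements of the male germline list and the 88 of these with a CS mean log2 ratio at or below -4; each mark is 1 array. The red triangles drop from 64.8% or more in CS, Berlin and XY dsx nulls to 31.8% or less in the other 4 comparisons, where dsxD replicate 1 is the highest.

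The comparison of CS males with XY dsx nulls sets the wild type against animals that lack both isoforms of DSX but have an X and a Y chromosome and a germline. It was the only one in which the 3 genes could be tested on arrays that did not choose them, although CS males also served on the CS arrays, and the sources used here do not say whether it was the same RNA. The nulls came from crosses of dsx mutants and the males from CS, so that dsx and genetic background cannot be told apart. All 3 were higher in CS males on all 4 arrays. For CG6372 the log2 ratios of CS male over XY dsx null on replicates 1 to 4 were 2.52, 1.53, 1.66 and 1.46. The mean was 1.79 ± 0.19 (limma SE, n = 4), a 3.47-fold difference with a 95% interval from 2.55 to 4.71 (limma q = 0.000167). For CG9920 the ratios were 2.14, 1.01, 0.92 and 0.99, with a mean of 1.26 ± 0.22 (limma SE, n = 4; 2.40-fold, 95% interval 1.69 to 3.40, limma q = 0.00107). For CG31820 they were 2.29, 1.14, 0.96 and 1.02, with a mean of 1.35 ± 0.23 (limma SE, n = 4; 2.56-fold, 95% interval 1.77 to 3.69, limma q = 0.001).

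Replicate 1 was the highest array for all 3 genes, and replicates 2 to 4 lay close together. Without it the mean was 1.55 for CG6372, 0.97 for CG9920 and 1.04 for CG31820, which are 2.93-fold, 1.96-fold and 2.06-fold, and q stayed below 0.15. The same array was also the highest for the male germline list as a whole, whose median was 1.11 on replicate 1 and 0.73, 0.64 and 0.80 on replicates 2 to 4, while the median over all elements was between -0.15 and -0.04 on the 4 arrays. Replicates 1 and 2 share a dye orientation, and their mean was 2.02 for CG6372, 1.57 for CG9920 and 1.72 for CG31820, against 1.56, 0.95 and 0.99 on replicates 3 and 4. All of these values were above 0. In whole pupae, fewer germ cells of a stage and less RNA per cell cannot be told apart.

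These calls have to be read against a comparison in which most elements passed the test. Of the 8583 elements tested, 80.9% had a q value below 0.15, and 34.2% of those tested were called higher in CS males. An unadjusted limma p below 0.05 was reached by 4362 of the 8583, fewer than the 6943 called, so that a call at this q is lenient here. Of the 671 elements of the male germline list, 665 were tested, of which 603 (90.7%) were called higher and 17 lower in CS males, with a median log2 ratio of 0.84 against -0.10 over all elements. In the male germline list 533 elements had an unadjusted limma p below 0.05. All 88 strong elements were called higher, with a median of 1.39, and all 88 had such a p. The 3 of 3 calls are therefore what most elements of that list gave. Of the 350 elements that the study lists with female germline expression, 330 were tested, with a median of -0.19, and 84 were called higher and 184 (55.8%) lower in CS males, against 46.7% called lower over all elements. With array medians subtracted, 3239 of all elements were called higher and 3277 lower, in place of 2938 and 4005.

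The size of the difference placed the 3 genes differently within the male germline list. CG6372 was exceeded by 9 of the 665 elements (1.35%) and by 128 of all 8583 (1.49%). CG31820 was exceeded by 103 elements of the list (15.5%) and CG9920 by 141 (21.2%). Without replicate 1 these became 13, 150 and 188 of 656. Within each array the ratio of CG6372 was above that of CG9920, by 0.37 to 0.74 (mean 0.53 ± 0.16, SD, n = 4), and above that of CG31820, by 0.22 to 0.70 (mean 0.44 ± 0.20, SD, n = 4). CG31820 and CG9920 differed by 0.04 to 0.15 (mean 0.09 ± 0.06, SD, n = 4), the former being higher on all 4 arrays. An exact two-sided permutation test that turns the sign of each array gave p = 0.125 for each of the 3 pairs (0.125 also after Benjamini-Hochberg adjustment over 3), the smallest value that 4 arrays allow. The ratios come from different oligonucleotides, which may compress a difference to different degrees.

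**Figure D3:**
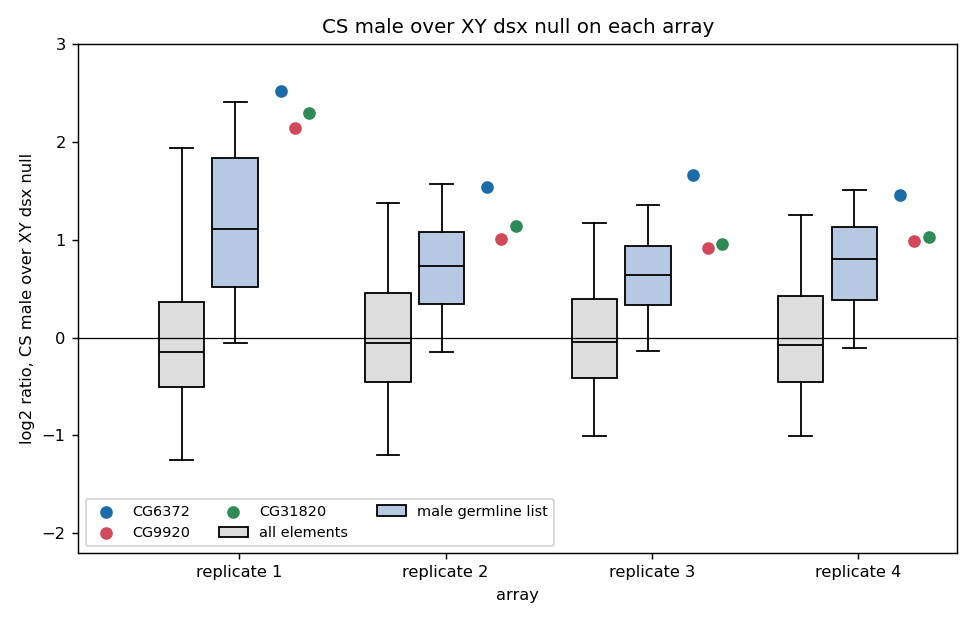
Log2 ratio of CS male over XY dsx null (vertical axis) on each of the 4 arrays; grey boxes hold all elements and blue boxes the male germline list (line, median; box, quartiles; whiskers, 5th to 95th percentile), and the points are CG6372, CG9920 and CG31820. On every array the 3 points lie above the median of the male germline list, and replicate 1 is the highest for the points and for the list.

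Among elements of the male germline list, those with a stronger male bias in Berlin, whose arrays share no RNA with the XY dsx null comparison, had larger ratios of CS male over XY dsx null. The 15 tested elements with a Berlin mean at or below -6, which include the 3 genes, had a median of 1.51 (quartiles 1.35 and 1.66). The Berlin ratios were also used to choose the 3 genes, so that their place in this group follows from the choice and the grouping is a description. The median was 1.35 for the 82 elements between -6 and -4, 1.15 for 152 between -4 and -2, 0.69 for 157 between -2 and -1, and 0.40 for 202 above -1. CG6372 lay above the upper quartile of the first group, CG31820 near its lower quartile and CG9920 below it. The median on replicate 1 was 2.14 against 1.14 to 1.34 on the other arrays in the first of these groups, and 0.49 against 0.36 to 0.44 in the last.

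**Figure D4:**
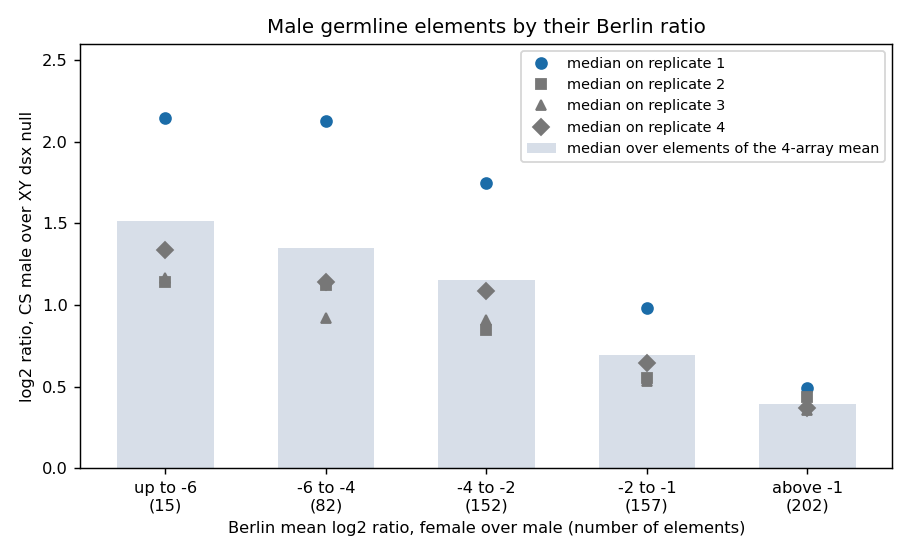
Median log2 ratio of CS male over XY dsx null (vertical axis) for elements of the male germline list grouped by their mean Berlin ratio of females over males (horizontal axis, with the number of elements); bars are medians of the 4-array means and marks are the medians on single arrays. The medians fall from 1.51 in the group with the lowest Berlin ratios to 0.40 in the group above -1, and replicate 1 is the highest mark in each group.

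The M17 leucyl aminopeptidases give the family in which CG6372 stands. Of 9 genes in this list, 8 had a named element, and the missing one was CG18369 (S-Lap5). All 8 had CS means below 0, with a median of -6.51. Besides CG6372 these were CG4750 (loopin-1, a protein of the sperm mitochondrial derivative) at -7.96, CG32064 (S-Lap4) at -7.32, CG4439 (S-Lap8) at -6.99, CG32351 (S-Lap2) at -6.02, CG13340 (S-Lap7) at -5.36 and CG32063 (S-Lap3) at -5.27. The remaining member, CG7340 (granny smith), which is not counted among the sperm-named aminopeptidases, stood far from them at -0.95 ± 0.62 (SD, n = 4). These 7 sperm-named elements, CG6372 and CG4750 included, are a description as far as they share the ratios of the choice.

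In the XY dsx null comparison, all 7 relatives of CG6372 were called higher in CS males (limma q below 0.15), as were 34.2% of all elements and 90.7% of the male germline list, to which all 7 belong. Their median log2 ratio was 1.45, against 0.84 over that list and 1.39 over its 88 strong elements, all of which were called higher. CG4750 gave 1.79 ± 0.24 (limma SE, n = 4; q = 0.000426), like CG6372. CG13340 gave 1.73 ± 0.20 (q = 0.000241). CG7340, the least male-biased, gave 0.70 ± 0.12 (q = 0.00102), with arrays between 0.57 and 0.86, against 1.46 to 2.52 for CG6372, whose mean was exceeded by 1.49% of all elements tested. CG32063 gave 1.02 ± 0.27 (q = 0.0054) and was the only one with an array below 0, at -0.11. CG7340 was also the only aminopeptidase with enough values in tud progeny, where its ratio was -0.03 ± 0.13 (limma SE, n = 4, q = 0.586; 15.2% of the 7851 elements tested in tud progeny were called). Its ratio was -0.24 ± 0.17 in the dsxD pseudomales (n = 3, q = 0.278; 26.3% of elements called) and -0.01 ± 0.13 in the XX dsx nulls (n = 4, q = 0.506; 40.4% called). The sperm-named elements had at most 1 value in any of these comparisons. On the arrays named above, CG4750 was at -2.39 on tud replicate 2 and at -2.59 on dsxD replicate 1, and CG13340 was at -1.46 on tud replicate 2.

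CG32351 (S-Lap2) is the gene next to CG6372 on 3L in the Release 6 table. Its ratios in the XY dsx null comparison had a mean of 1.42 ± 0.21 (limma SE, n = 4, q = 0.000586), and like CG6372 it was highest on replicate 1, at 2.26. CG13245, the neighbor of CG31820 on 2L, is also in the male germline list, with a mean of -3.63 in CS, -4.92 in Berlin and 1.55 in the XY dsx null comparison. The nearest genes on either side of CG9920, CCHa1 and a long non-coding RNA, had no named element. A step further lay Npc2b, at -0.30 in CS and 0.06 in the XY dsx null comparison.

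The mitochondrial chaperonins set CG9920 beside its general counterpart. CG11267, the other small co-chaperonin, had values on all but 1 of the 28 arrays and ratios near 0 in the wild type, at 0.23 ± 0.15 (SD, n = 4) in CS and 0.10 ± 0.27 (SD, n = 4) in Berlin. The Hsp60 paralogs measured here had CS means below 0, at -3.25 for Hsp60C, -2.93 for Hsp60D and -3.68 for Hsp60B, a gene needed for sperm formation. None of them approached the -7.18 of CG9920. Of the 6 genes of the list, 5 had a named element, and Hsp60A, the general form, was not among them.

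All 4 relatives of CG9920 were called higher in CS males than in XY dsx nulls (limma q below 0.15), as were 34.2% of all elements and 90.7% of the male germline list, to which the 3 Hsp60 paralogs belong and CG11267 does not. Hsp60B gave 1.46 ± 0.18 (limma SE, n = 4, q = 0.000323), Hsp60C 1.37 ± 0.23 (n = 4, q = 0.000928) and Hsp60D 1.31 ± 0.18 (n = 3, q = 0.000647), beside 1.26 for CG9920. CG11267 gave 0.26 ± 0.12 (limma SE, n = 4, q = 0.0314), with arrays between 0.18 and 0.41, against 0.92 to 2.14 for CG9920. The mean of CG9920 was exceeded by 5.69% of all elements tested. The call of CG11267 is weak, since 4 of the 5 elements of the list had an unadjusted limma p below 0.05 and CG11267 did not. Its limma p was 0.108 after Benjamini-Hochberg adjustment. With the array medians subtracted or under the other settings tried, the ratio of CG9920 stayed between 0.93 and 1.38.

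CG11267 was also measured where CG9920 was empty. It was higher in CS females than in dsxD pseudomales (0.78 ± 0.15, limma SE, n = 4, q = 0.00678) and than in XX dsx nulls (0.60 ± 0.12, n = 4, q = 0.00886). In tra pseudomales it was 0.56 ± 0.23 (n = 3, q = 0.135; 24.7% of elements called in that comparison, a count of 1876 that fell to 739 without tra replicate 4 and 1137 without replicate 1), and in tud progeny 0.46 ± 0.18 (n = 4, q = 0.155), just outside the threshold. Hsp60C was at -5.29 on XX dsx null replicate 4, the array that also held CG6372, and in dsxD pseudomales it was at 0.23 ± 0.31 (limma SE, n = 3, q = 0.439), with arrays between -0.44 and 1.19. In tra pseudomales it was at 0.42 ± 0.15 (limma SE, n = 4, q = 0.0927). The tra calls of CG11267 and Hsp60C held under only 5 and 6 of 11 alternatives. Both were lost with the methods' t-test (q = 0.300 and 0.178), with Benjamini-Hochberg adjustment of the limma p (0.240 and 0.166), and without replicate 1 or replicate 4. By contrast, the calls of CG11267 in dsxD pseudomales and XX dsx nulls held under all 11 alternatives, with q at most 0.0551. Of the list, these were the members with enough values in those comparisons.

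**Figure D5:**
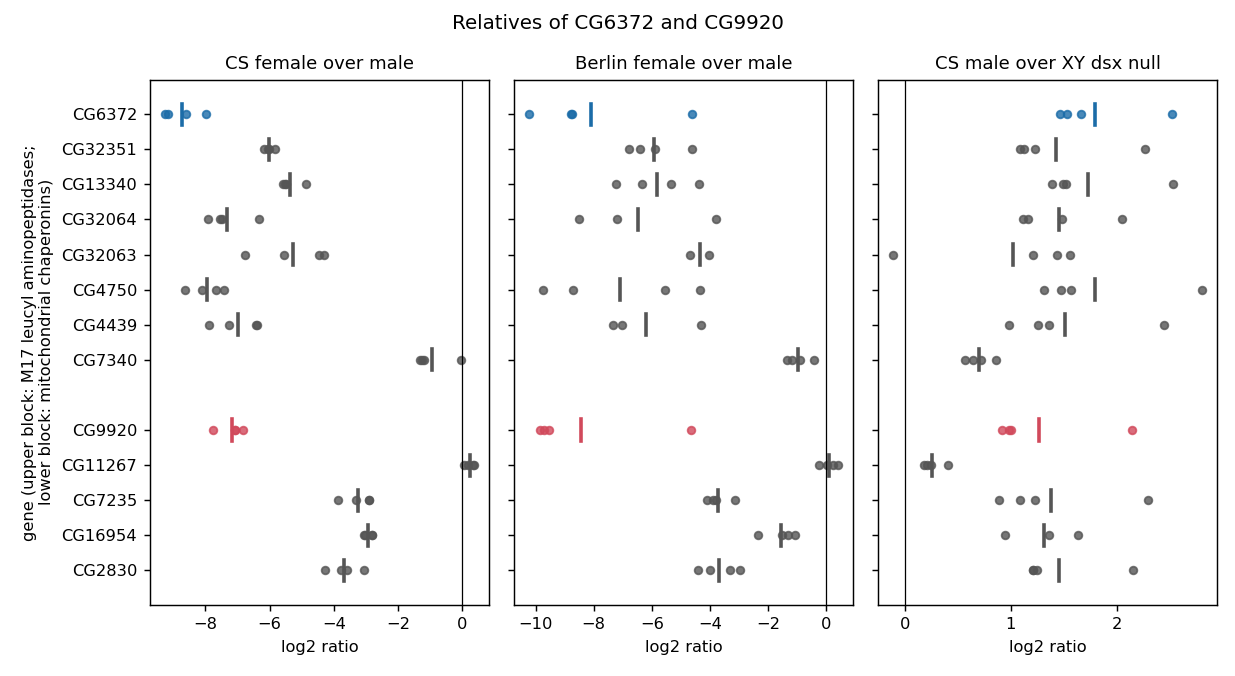
Log2 ratios on single arrays (points) and their means (vertical strokes) for the M17 leucyl aminopeptidases (upper block) and the mitochondrial chaperonins (lower block) in CS, in Berlin and in the comparison of CS males with XY dsx nulls; CG6372 is blue and CG9920 red. CG7340 and CG11267 lie nearest to 0 of their blocks in all 3 panels, and in the last panel the rightmost point of each gene is replicate 1, except for these 2.

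Other genes of the spermatid varied more widely. The list holds 13 elements, which are the 6 markers, 3 further Mst84D genes of the sperm tail, 3 sperm-specific dynein intermediate chains (Sdic1, Sdic2 and Sdic3, near-identical copies whose signals an oligonucleotide may not separate) and janA. Of these, 12 were called higher in CS males than in XY dsx nulls (limma q below 0.15), which is 92.3% against 90.7% of the male germline list, to which all 13 belong, and 34.2% of all elements. The median over the list was 1.37 and the range 0.09 to 2.38. The call of Sdic1 (0.15, q = 0.113) was lost with Benjamini-Hochberg adjustment (q = 0.39) and without replicate 1 or 2. The lowest was janA, which is not restricted to the testis, at 0.09 ± 0.11 (limma SE, n = 4, q = 0.155), and the highest was Mst84Dc at 2.38. All 6 markers were called higher, with a median of 1.38. Few of the 13 could be tested elsewhere. In tud progeny 5 were tested and in tra pseudomales 4, without a call at q below 0.15 by limma, with 0 of them at an unadjusted p below 0.05 and 0 called by the methods' t-test. In dsxD pseudomales 1 of 6 (16.7%), and in XX dsx nulls 1 of 4 (25%), was called higher than in CS females, against 13.4% and 20.2% of all elements, and both were Mst87F. Its ratio of -2.12 in dsxD pseudomales rests on replicates 1 (-2.51) and 2 (-1.73), and its ratio of -2.61 in XX dsx nulls on replicates 2 (-1.96) and 4 (-3.26). Both calls were lost with the methods' t-test (q = 0.244 and 0.191 by Storey's method), and neither could be tested without dsxD replicate 1 or XX dsx null replicate 4.

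The named elements most like each gene were found by the smallest root mean square difference of log2 ratios over shared arrays. For CG6372 these were CG31820 (0.77 over 10 arrays), CG32064 (1.05 over 11) and CG9920 (1.11 over 14), among 2024 named elements that shared at least 10 arrays with it. For CG9920 they were CG31820 (0.57 over 10), CG32064 (0.99 over 11) and CG17376 (1.02 over 11), and for CG31820 they were CG4750 (0.46 over 10), CG9920 (0.57 over 10) and CG6372 (0.77 over 10). The Pearson correlations of these pairs across arrays were between 0.98 and 1.00. The shared arrays are almost all from CS, Berlin and XY dsx nulls, whose ratios differ in sign by their direction. Any element with a strong male bias therefore correlates highly. The CS and Berlin ratios also chose CG6372, CG9920 and CG31820 as some of the lowest. Small root mean square differences among them, and from other elements with very low ratios there, follow in part from that choice. The ranking by this difference is therefore a description. In the XY dsx null comparison the ratio of CG4750 was above that of CG31820 by 0.44.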

How the data were processed

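The authors extracted the RNA, labeled 30 µg per genotype with dyes swapped between replicates 1 and 2 and replicates 3 and 4, scanned the arrays with GenePix, kept elements by the share of pixels brighter than background in at least 1 channel, and deposited log2 ratios after global loess normalization within each array in limma (version not given in the sources used here). These sources do not say whether the background was corrected or arrays were scaled to each other. The array was designed on an earlier genome release. Depth has no counterpart here, and the number of arrays limits the precision.

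Of 15776 rows, 32 controls were left out. Elements were named through the study's supplementary lists and placed by a RefSeq table of assembly Release 6 plus ISO1 MT, from which no coordinates were taken. In each of 5 comparisons, elements with values on at least 2 of 4 arrays were tested against 0 with limma 3.58.1 in R 4.3.3 (moderated, two-sided), and q values followed Storey's method (smoother over lambda from 0.05 to 0.95), with a call at q below 0.15. The methods name a t-test and limma, and the t-test without moderation was an alternative. CS and Berlin were not tested. The fit was tested on simulated data. Figures were drawn with matplotlib 3.10.9. The 3 genes and the lists (M17 leucyl aminopeptidases, mitochondrial chaperonins, spermatid genes, testis germline markers, roX1, roX2 and Sxl, and the male and female germline lists) were chosen with earlier results of these data known. roX2, like roX1 a male RNA, lay between -3.97 and -3.47 in CS, but varied more in Berlin (-3.59 to -0.63) and in tud progeny (-5.54 to -0.07). On the 4 XY dsx null arrays it lay below 0, between -1.03 and -0.34, unlike roX1, and it had no value in the XX mutants. Besides the 3 genes, the genes named are members of these lists, the neighbors in the ranking and on the chromosome, and for each gene the 3 named elements with the smallest root mean square difference over at least 10 arrays. Oligonucleotide sequences were not used here. For tud replicates 2 and 4 the sex of channel 2 differs between fields of the labels, and the source name was used, as it was for dsxD replicate 1, where channel 1 has no sex field.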

Additional observations from a re-analysis of the deposited data

Results flagged for a closer look

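The 3 genes had values on all 4 arrays in 8 instances of a gene and a comparison. In 3 of these an array stood far from the others, by its gap to the nearest array as a share of the range, set against Dixon's 95% critical value. Chance alone gives about 1 such array in 20 groups, but the instances share arrays and 5 of them are wild type values that chose the genes, so that their number cannot be set against that share. CG9920 was at -4.65 on Berlin replicate 4, with a gap of 0.944 of the range. It was at 2.14 on XY dsx null replicate 1 (0.928), and CG31820 was at 2.29 on the same array (0.864). CG6372 was also highest on that array, with a gap of 0.81, which did not pass that value.

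Values in comparisons where a gene had no other value were also singled out, since they enter no test. These were CG6372 at -3.05 and CG9920 at -2.46 on dsxD replicate 1, CG6372 at -4.86 on XX dsx null replicate 4, and CG9920 at -1.47 on tud replicate 2. Each lies on the side of more signal in the XX mutant or in the tud male.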

How the results depend on the processing

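No paired analysis was possible because each comparison was tested on its own 4 arrays, where the 2 genotypes already share each array, and replicate numbers only repeat across comparisons. In the XY dsx null comparison the 3 genes kept their direction and their call under 11 alternatives each (Benjamini-Hochberg adjustment, a dye term, centering, scaling, at least 3 arrays, the methods' t-test, 1 fit over all arrays, and each array left out). With arrays left out the log2 ratio was 1.55 to 1.90 for CG6372, 0.97 to 1.38 for CG9920 and 1.04 to 1.49 for CG31820, and it was lowest with arrays scaled (1.32, 0.93 and 0.99). Their q values were at most 0.0142, 0.0463 and 0.0326. The count of elements called there was 6943, and 4922 to 7468 under other settings and 5384 to 6644 with an array left out. The CS means stayed within the spread of the arrays under centering, scaling and with arrays left out (-9.00 to -8.57 for CG6372, -7.30 to -6.99 for CG9920, -8.05 to -7.90 for CG31820). The Berlin means moved to between -9.25 and -7.38, -9.71 and -7.98, and -9.79 and -4.56 with an array left out, and scaling gave -6.32, -6.59 and -6.34. In tud progeny, where none of the 3 genes could be tested, the count of calls ranged from 0 (the methods' t-test) to 3349 (a dye term) around 1192, and was 272 to 663 with an array left out (272 without replicate 1). For tra pseudomales it was 1876, with 868 (the methods' t-test) to 4293 (a dye term) and 739 to 1419 with an array left out; for dsxD pseudomales 2194, with 1307 to 3064 and 1434 (without replicate 1) to 2299; and for XX dsx nulls 2775, with 1874 to 3619 and 2055 to 2621. With Pearson's correlation in place of the root mean square difference, 1, 1 and 2 of the 3 most similar elements of CG6372, CG9920 and CG31820 were shared. The limits are the single values outside the wild type and XY dsx nulls, the unknown intensities behind an empty element, and the 4 arrays of each comparison.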
